A study of Mus musculus with 4 samples.

Results

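Of the cytosines measured in the hippocampus, 53292 were unmethylated in both the E3 library and the CT library, and they lay mostly in CpG-rich promoters. They were chosen by their measured values, with a methylated fraction of 0.02 or less and 20 to 99 reads in both libraries, on chromosomes 1 to 19. Each is a single cytosine of a CpG on a single strand, and the 53292 cytosines belonged to 50126 CpGs. The CpG table held 2226271 cytosines in all, of which 2147225 were on these chromosomes. The depth rule alone left 197105 cytosines, called the depth window here, and 27.0% of these were unmethylated in both libraries. The same depth window held 15910 cytosines with a fraction of 0.98 or more in both libraries (fully methylated) and 3192 with a fraction of 0.40 to 0.60 in both (intermediate).

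The E3 library came from the hippocampus of female wild type CD-1 offspring, an outbred mouse stock, whose mothers had carried a mini-osmotic pump with 50 µl of estriol (E3, a weak estrogen of pregnancy) at 0.46 mg/ml in DMSO for 7 days from day 9 of gestation. The CT library came from the hippocampus of offspring whose mothers had received DMSO alone in the same way. The labels give an age of 8 weeks for both. The paper gives the same age for the females that were bred and treated, and for the offspring whose uteri were studied. For gene expression in offspring brains it gives a later age, counted in months, and for the brain methylation libraries none. Whose age the labels mean is therefore not settled. The number of mice behind each library is given neither in the labels nor in the methods. A matching pair of E3 and CT libraries came from the frontal cortex. With 1 library per tissue and treatment, no value has a replicate check, and any test compares 2 libraries and not the treatments.

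In mammalian DNA most CpGs carry a methyl group on both strands, and methylated cytosines are slowly lost by deamination. Stretches that stay unmethylated in the germline therefore keep many CpGs, and these CpG islands cover the starts of most housekeeping and developmental genes. Proteins with a CXXC domain bind unmethylated CpGs there. Methylation of a CpG island promoter goes with stable silencing, as at germline genes in the body and at the silent copy of imprinted genes. Brain tissue mixes neurons, glia and vessel cells, so a cytosine at 0 in a tissue library was unmethylated in nearly all of the molecules read, whatever cell they came from.

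Sequences from 5 places outside annotated exons show what the unmethylated cytosines look like beside fully methylated ones. They are plus strand sequences of the mm10 (GRCm38) reference. Capitals mark the CpGs with at least 1 strand in the class named, and CpGs in lower case were in another class or had no strand in the depth window. The first is the intronic part of the promoter of Fam133b, a gene on chromosome 5, at chr5:3543996-3544149. It holds 28 CpGs in 154 bases, with 21 in capitals, and the 33 unmethylated cytosines there had 0 of 1419 reads methylated in E3 and 0 of 697 in CT.
Fam133b: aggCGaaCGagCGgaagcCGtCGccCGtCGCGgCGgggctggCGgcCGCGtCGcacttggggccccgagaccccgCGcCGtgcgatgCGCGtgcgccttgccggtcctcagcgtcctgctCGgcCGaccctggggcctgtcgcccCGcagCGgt
The second lies inside Lmx1a, a homeobox gene of dorsal midline and midbrain development, at chr1:167803173-167803263, far from its start. All 13 CpGs of these 91 bases are in capitals, and the 20 cytosines had 0 of 859 reads methylated in E3 and 0 of 507 in CT.
Lmx1a: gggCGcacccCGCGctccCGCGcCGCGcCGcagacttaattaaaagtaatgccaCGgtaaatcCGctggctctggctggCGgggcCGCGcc
The third lies downstream of Gdf6, a bone morphogenetic protein family gene, at chr4:9874750-9874873, with 12 CpGs, all in capitals. Its 15 cytosines had 0 of 421 reads methylated in E3 and 0 of 300 in CT.
Gdf6: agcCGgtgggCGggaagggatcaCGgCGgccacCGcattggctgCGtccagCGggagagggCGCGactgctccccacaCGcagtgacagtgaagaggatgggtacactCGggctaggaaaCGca
The last 2 are fully methylated stretches for comparison, and here capitals mark fully methylated CpGs. The stretch in an intron of Pcnx at chr12:81972971-81973170 holds 10 CpGs in 200 bases, and its 9 cytosines had 522 of 527 reads methylated in E3 and 233 of 233 in CT.
Pcnx: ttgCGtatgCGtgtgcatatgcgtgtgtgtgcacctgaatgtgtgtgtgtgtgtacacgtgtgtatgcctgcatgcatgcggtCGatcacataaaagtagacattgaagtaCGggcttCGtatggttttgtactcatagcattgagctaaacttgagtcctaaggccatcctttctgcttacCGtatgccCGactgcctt
The stretch upstream of Nobox, a transcription factor gene of the oocyte, at chr6:43326707-43326777 holds 7 CpGs in 71 bases, and its 9 cytosines had 321 of 321 reads methylated in E3 and 196 of 196 in CT.
Nobox: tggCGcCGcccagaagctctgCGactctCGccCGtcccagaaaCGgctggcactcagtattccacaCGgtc

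Most of the unmethylated cytosines had no methylated read at all. Both libraries were at 0 in 50178 of the 53292 (94.2%). A methylated read was present in E3 alone in 2994, in CT alone in 109 and in both in 11. The depth differed between the libraries, with a median of 42 reads in E3 (quartiles 30 and 56) and 24 reads in CT (quartiles 22 and 30). The deposited fraction has 2 decimals, so a cytosine with under 41 reads qualified only with 0 methylated reads. At least 41 reads were reached by 52.6% of the unmethylated cytosines in E3 and by 5.41% in CT, so a methylated read could be carried in E3 far more often than in CT. Among the 1960 with at least 41 reads in both libraries, 195 had a methylated read in E3 and 78 in CT. Summed over all of them, 3845 of 2408384 reads were methylated in E3 (0.160%) and 121 of 1420433 in CT (0.00852%), values that the rule itself sets.

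The rule leaves out many near neighbours in value. Cytosines at 0.03 in E3 with 0.02 or less in CT numbered 3916, and those at 0.03 in CT with 0.02 or less in E3 numbered 412. Just inside it, 2468 were at 0.02 in E3 and 112 in CT. A count of 0 of 20 reads allows a level of up to 15%, and 0 of 99 reads up to 3.03%, from counting error alone. Depths were even numbers at 73.2% of the unmethylated cytosines in E3 and 81.1% in CT, against 57.1% in E3 and 56.9% in CT over all autosomal cytosines. Within 5 bases of a TaqαI or MspI site the even share was 49.9% in E3 and 46.4% in CT, and at 20 to 49 bases it was 62.1% in E3 and 64.9% in CT. An even depth is what results where both ends of a read pair cover a cytosine and both are counted, and whether that took place was not tested. If all reads were such pairs, 20 reads would be 10 molecules, and 0 of 10 allows up to 30%.

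Promoters held most of the unmethylated cytosines. Within 1000 bases of a RefSeq transcription start lay 87.1% of them (95% Wilson interval 86.8% to 87.4%, counting error only), against 40.6% of the depth window, 4.09% of fully methylated and 10.9% of intermediate cytosines. Outside promoters, 4.69% lay in exons, 4.36% in introns and 3.83% outside genes. The share of depth-window cytosines that were unmethylated was 60.4% in the 500 bases before a start and 62.6% in the 500 bases after it. It was 30.8% at 500 to 1000 bases upstream and 46.3% at 500 to 1000 bases downstream. Beyond 50000 bases it was 1.26% upstream and 1.75% downstream. Fully methylated cytosines had the reverse profile, with 0.505% of the depth window in the 500 bases after a start and 15.2% beyond 50000 bases downstream.

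**Figure D1:**
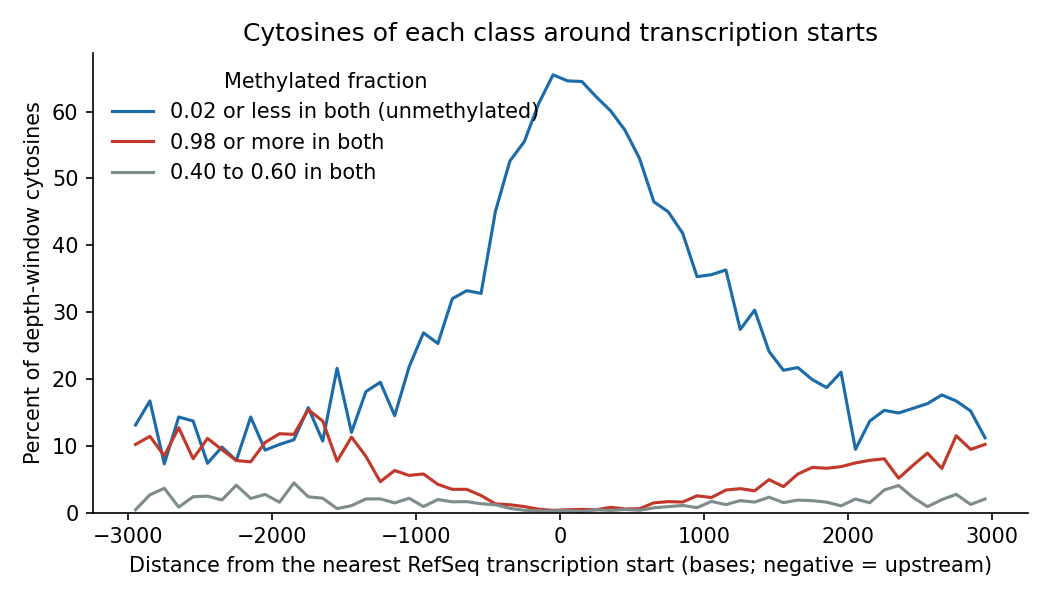
Share of depth-window cytosines in each class (percent, y axis) in bins of 100 bases by distance from the nearest RefSeq transcription start (bases, x axis), for cytosines at 0.02 or less, 0.98 or more, and 0.40 to 0.60 in both hippocampus libraries. The unmethylated class peaks at the start and reaches further downstream than upstream, with 46.3% at 500 to 1000 bases after the start and 30.8% at 500 to 1000 bases before it.

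Local CpG density separated the classes as well. The 100 bases on each side of an unmethylated cytosine held a median of 19 CpGs (quartiles 14 and 25), against 8 in the depth window (quartiles 5 and 17), 5 around fully methylated and 5 around intermediate cytosines. Their median GC content was 67.2%, against 54.2% in the depth window. The median ratio of observed to expected CpGs was 0.881, against 0.609 in the depth window. Island-like surroundings, with over 50% GC and a ratio over 0.6, were found at 85.9% of unmethylated, 12.7% of fully methylated and 9.40% of intermediate cytosines, against 41.4% of the depth window.

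Density and position each went with the unmethylated class when the other was held. In promoters, 22.6% of depth-window cytosines with 1 to 8 CpGs around them were unmethylated, 54.9% of those with 9 to 16, and 70.0% of those with 17 or more. Outside promoters the shares were 1.80%, 12.4% and 46.3%. A cytosine in a dense stretch away from any start was therefore unmethylated more often than one in a sparse promoter. The distance to the nearest TaqαI or MspI site, which decides what the method can read, differed less, with 80.4% of unmethylated, 73.1% of fully methylated and 77.3% of depth-window cytosines within 50 bases of one.

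**Figure D2:**
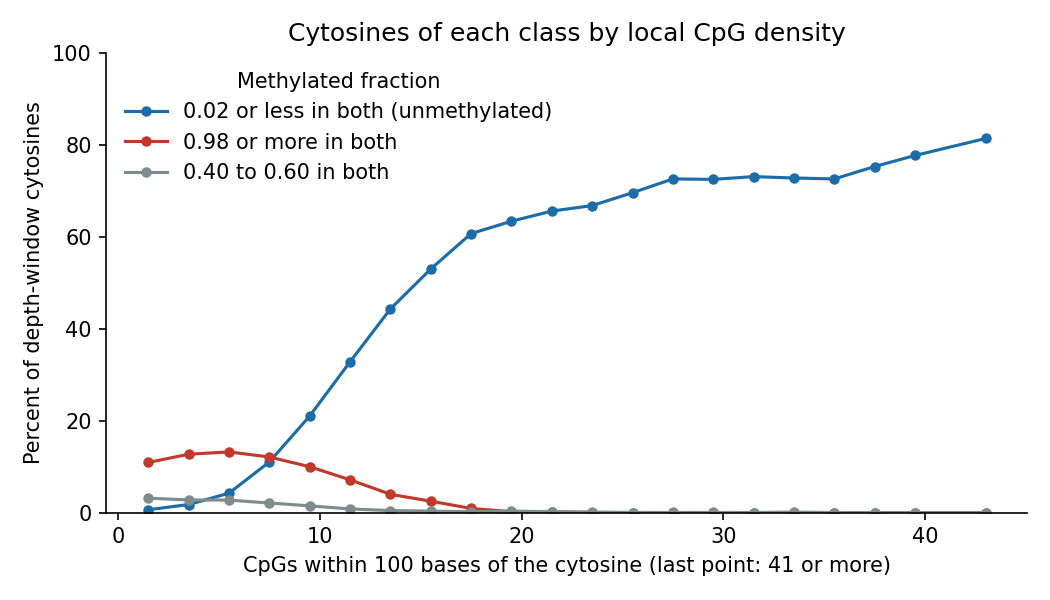
Share of depth-window cytosines in each class (percent, y axis) by the number of CpGs within 100 bases of the cytosine (x axis, bins of 2 CpGs, the last point collecting 41 or more). The unmethylated share is 0.618% at 1 or 2 CpGs and 81.4% at 41 or more, while the fully methylated share falls below 1% of the depth window from 17 CpGs on.

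The unmethylated cytosines came in runs. Chaining those at most 100 bases apart gave 14989 chains, in which 90.7% of them had at least 1 neighbour, and 4976 stood alone. Chains of 10 or more numbered 955 and held 12678 of them (23.8%), with a median length of 117 bases. Fully methylated cytosines gave 12047 chains, of which 2 had 10 or more cytosines, and 59.1% of them stood alone. Around an unmethylated cytosine, 74.7% of the depth-window cytosines of other CpGs within 100 bases on the same strand were unmethylated too, against 47.4% around any depth-window cytosine. In all shares of neighbours, here and below, a neighbour counts once for each cytosine it lies near, so dense stretches weigh more. Cytosines on the same strand of a fragment are read on the same molecules, so they are not separate measurements. On the opposite strand, which comes from other molecules, the share was 65.6% against 48.1%. Fully methylated neighbours made up 0.0360% on the same strand and 0.0168% on the opposite strand. Fully methylated cytosines also lay near each other. Around one of them, 36.4% of such same-strand neighbours were fully methylated, against 4.04% around any depth-window cytosine. On the opposite strand it was 31.8% against 2.52%. Lying near others of the same class was thus not particular to the unmethylated cytosines.

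The longest runs sat at gene starts. The chain with the most cytosines was at Ado, the gene of a thiol dioxygenase, at chr10:67548708-67548997, with 40 unmethylated cytosines of 31 CpGs. They had 0 of 1620 reads methylated in E3 and 1 of 1067 in CT, at 20 to 54 reads per cytosine in E3 and 20 to 56 in CT. Another 14 depth-window cytosines between them did not meet the rule. At Rhou, a small GTPase gene, 38 of 40 depth-window cytosines at chr8:123653661-123653910 were unmethylated, with 0 of 1280 reads methylated in E3 and 0 of 789 in CT. The depth was 22 to 40 reads per cytosine in E3 and 20 to 22 in CT, so the CT values of this run stand near the lowest depth the rule allows.

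Uhrf2, a relative of the maintenance methylation factor Uhrf1, had a run of 34 unmethylated cytosines at chr19:30030507-30030666, with 0 of 1474 reads methylated in E3 and 0 of 1074 in CT. Runs of 33 were at Fam133b, whose sequence is given above, and between Ndufaf8 and Tepsin, where 4 of 2015 reads were methylated in E3 and 0 of 821 in CT. The start of Tdp1, which repairs stalled topoisomerase breaks, held 32 at chr12:99884489-99884571, with 0 of 971 reads methylated in E3 and 0 of 882 in CT. Ccdc85c had 32 as well, with 2 of 1324 reads methylated in E3 and 0 of 904 in CT. Nkx2-4, a homeobox gene of the ventral forebrain, had a run of 29 with 0 of 806 reads methylated in E3 and 0 of 905 in CT. Pawr, a pro-apoptotic gene, and Carmil3, an actin capping regulator, had 28 each. At Carmil3, 6 of 2069 reads were methylated in E3 and 0 of 723 in CT. All 10 of these runs had their centre within 500 bases of a start, and 8 overlapped an exon.

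Of the genes with a depth-window cytosine in the promoter, 9770 of 13200 (74.0%) had an unmethylated one, with a median of 4. The share was 80.3% of 10193 protein-coding genes and 53.6% of 2369 lncRNA genes. Among the 7170 genes with at least 5 such cytosines, every one was unmethylated in 479, none was in 527, and 6164 had both kinds. Over all 80048 promoter cytosines of the depth window, 58.0% were unmethylated, and the pooled level was 8.17% in E3 and 7.73% in CT. A gene with several starts has more promoter, so counts per gene are not scaled to length. Genes with starts near each other share promoter cytosines, which are counted for each. Ccnt1 and the lncRNA gene 9330020H09Rik, for example, have the same 32 of 38. The gene counts are therefore not counts of separate promoters.

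The gene with the most unmethylated promoter cytosines was Notch2, a receptor of cell-to-cell signalling, with 46 of 56. Its pooled promoter level, over all 56, was 0.791% in E3 and 0.521% in CT. Cecr2, a chromatin remodelling gene, had 44 of 50, and Ado 42 of 60. Kcnk9, a two-pore potassium channel gene that is imprinted in the brain, had 39 of 47, at 0.851% in E3 and 1.13% in CT. Fam133b and Rhou followed with 38 each. The others of the first 15 were Ptma, Med12l, Tiparp, Chd7, Phf13, Ccnl1, Tjp1, Pim3 and Pbx3, with 35 to 37 each. Of these, Chd7, a chromatin remodeller gene with 5 annotated starts, had the highest pooled level, at 14.5% in E3 and 10.4% in CT over its 52 promoter cytosines.

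The genes with the most promoter cytosines and none unmethylated ranged from low to nearly full methylation. The pseudogene Gm13034 had 51, at a pooled level of 30.2% in E3 and 40.1% in CT. Pabpc2, a retrogene of a poly(A) binding protein, had 24, of which 12 were fully methylated, at 97.1% in E3 and 98.2% in CT. The vomeronasal receptor gene Vmn2r29 had 19 at 70.3% in E3 and 69.5% in CT. The lncRNA gene Gm40904 had 20 at 91.9% in E3 and 94.0% in CT, and Abhd15, an adipocyte gene, 19 at 35.5% in E3 and 37.7% in CT. Srsf9, a splicing factor gene, had 18 without an unmethylated one although its level was 4.82% in E3 and 2.80% in CT, so missing the rule does not mean being methylated. The same held for the 17 cytosines at the Mir129-2 gene, at 7.20% in E3 and 2.23% in CT.

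Gene lists differed widely in how many of their promoter cytosines were unmethylated. The lists were chosen with earlier results of these data known, so their shares are a description beside the 58.0% over all promoter cytosines. Housekeeping genes stood on both sides of it. Proteasome genes had 79 of 110 promoter cytosines unmethylated (71.8%), with 14 of 16 genes holding at least 1. Psma1 had 18 of 22, at 0.216% in E3 and 1.35% in CT, Psmc2 17 of 24, and Psmc1 6 of 6. Ribosomal protein genes had 70 of 143 (49%), with Rps19 at 10 of 14. Rpl13a had 0 of 6, at a level of 0.559% in E3 and 6.90% in CT. The pooled level of the ribosomal list was 2.00% in E3 and 2.73% in CT, against the 8.17% in E3 and 7.73% in CT of all promoter cytosines.

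**Figure D3:**
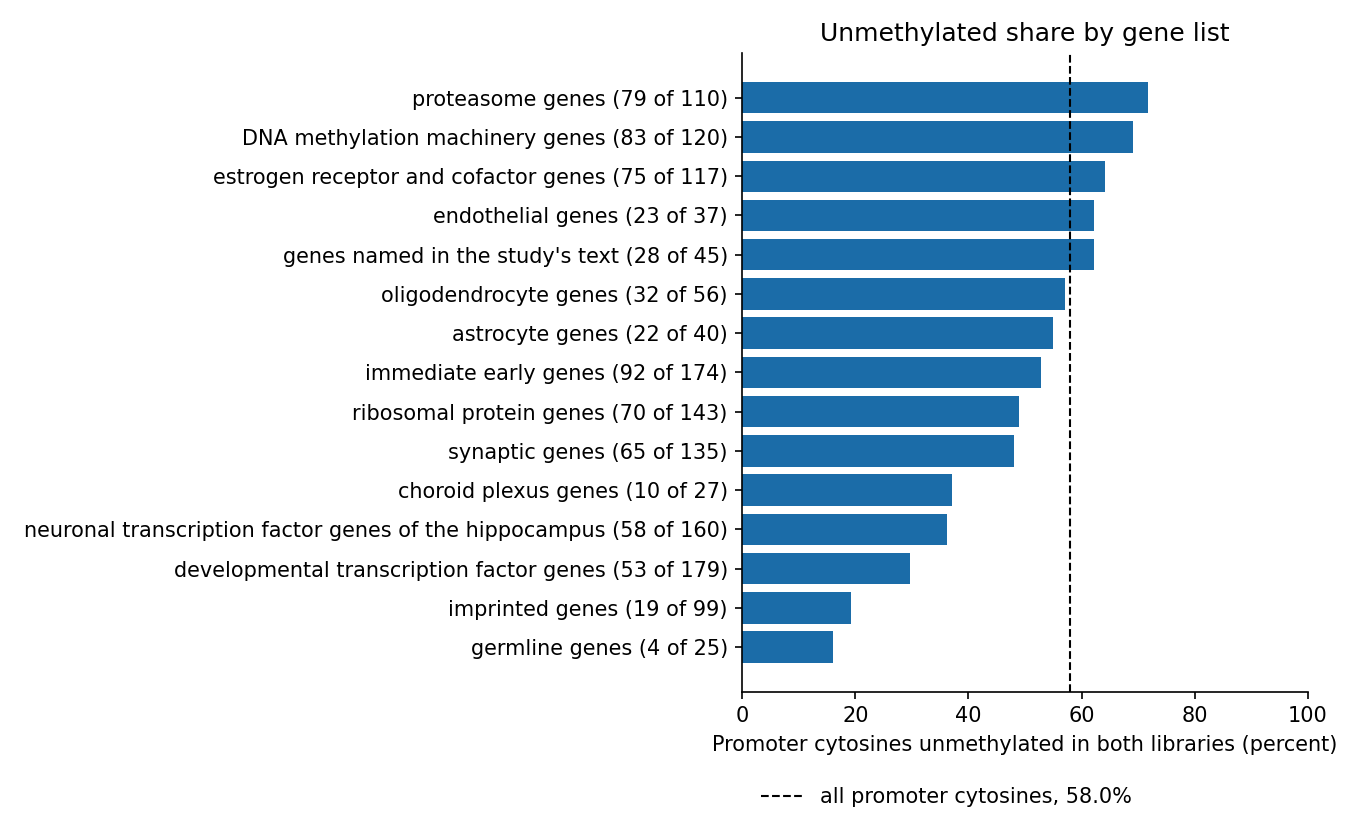
Share of promoter cytosines in the depth window that were unmethylated in both libraries (percent, x axis), for the 15 gene lists with at least 10 such cytosines, with the counts beside each name. The dashed line marks the 58.0% over all promoter cytosines, and the proteasome list stands highest and the germline list lowest.

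Genes of the DNA methylation machinery had 83 of 120 unmethylated (69.2%), in 14 of 15 genes. Among the methyl-CpG binding protein genes, Mbd2 had 15 of 21, Mbd4 12 of 14 and Mbd3 12 of 14, while Mbd1 had 1 of 5, at 9.63% in E3 and 8.46% in CT. Kdm2b, which encodes a CXXC protein that binds unmethylated CpGs, had 13 of 18, at 6.75% in E3 and 5.50% in CT. Dnmt3b, a de novo methyltransferase gene, had 2 of 5, at 1.84% in E3 and 1.64% in CT. Estrogen receptor and cofactor genes had 75 of 117 (64.1%), with at least 1 in each of the 11 genes measured. Suz12, a subunit gene of the Polycomb repressive complex, had 34 of 40, at 0.858% in E3 and 0.328% in CT. The coactivator gene Ncoa1 had 8 of 11, the orphan receptor gene Esrrg 9 of 14 and Ncoa2 4 of 18.

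Transcription factor genes had fewer. Developmental transcription factor genes had 53 of 179 unmethylated (29.6%), at a pooled level of 9.32% in E3 and 9.60% in CT with none fully methylated. Nkx6-1 had 10 of 16 and Nkx2-2 8 of 12. Pax6, which is active in neural progenitors, had 7 of 44, at 26.4% in E3 and 18.5% in CT. Hoxc6, a trunk patterning gene, had 0 of 6, at 3.19% in E3 and 16.9% in CT. Transcription factor genes of hippocampal neurons had 58 of 160 (36.2%). Among them Nr2f1 had 12 of 17, at 2.18% in E3 and 1.03% in CT. Fezf2 had 0 of 11, at 7.37% in E3 and 20.1% in CT, and Tcf4 0 of 9, at 30.0% in E3 and 25.3% in CT.

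Neuronal activity and synapse genes were nearer to the share of all promoters. Immediate early genes, which neurons switch on within minutes of activity, had 92 of 174 (52.9%). Junb had 18 of 19, at 0.556% in E3 and 1.54% in CT, Egr2 14 of 29 and Egr3 10 of 20. Bdnf, a neurotrophin gene with 9 annotated starts, had 13 of 23, at 12.8% in E3 and 11.7% in CT, with 1 of the 23 fully methylated. Arc had 0 of 5, at 7.80% in E3 and 15.7% in CT, and Npas4 2 of 13. Synaptic genes had 65 of 135 (48.1%), with the scaffold gene Shank2 at 14 of 23 and Homer1 at 8 of 10. Grin1, an NMDA receptor subunit gene, had 0 of 8, at 10.8% in E3 and 0.450% in CT. Of the other brain genes that the study's text names, Fos had 7 of 10, at 1.19% in E3 and 3.91% in CT, the adenosine receptor gene Adora2a 6 of 6, at 0% in both, and Agrn 2 of 5. The dopamine receptor gene Drd2 had 1 cytosine in the depth window, which did not meet the rule, at 21.6% in E3 and 3.23% in CT.

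Marker genes of glia and vessels differed from gene to gene. The oligodendrocyte list had 32 of 56 (57.1%), with the lineage factor gene Olig1 at 11 of 12, at 0.174% in E3 and 0.222% in CT, and Pdgfra at 10 of 17. Mag, a myelin glycoprotein gene, had 0 of 6, at 81.5% in E3 and 80% in CT. The astrocyte list had 22 of 40, of which the glutamate transporter gene Slc1a2 gave 19 of 25, and Slc1a3 had 2 of 6 and Sox9 1 of 8. The endothelial list had 23 of 37, with Flt1 at 15 of 18, Kdr at 6 of 7 and the tight junction gene Cldn5 at 2 of 12, at 9.16% in E3 and 6.29% in CT. Choroid plexus genes had 10 of 27, with Kl at 7 of 8 and Otx2 at 2 of 18. The single microglia gene measured had 0 of 4, at 63.6% in E3 and 61.2% in CT, and the single erythroid gene, Epor, 1 of 1.

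Among the lists with at least 10 promoter cytosines, those of imprinted and germline genes had the smallest shares. Imprinted genes, which are expressed from a single parental copy, had 19 of 99 (19.2%), and Igf2 held 17 of these 19. Igf2 had 17 of 19 promoter cytosines unmethylated, at 0.558% in E3 and 0.380% in CT, and Grb10 had 2 of 3. The other 14 of 16 imprinted genes of the list had none. The list does not hold Kcnk9, whose 39 of 47 unmethylated promoter cytosines are given above. Mcts2 had 0 of 11, at 47.2% in E3 and 45.5% in CT, and Gnas 0 of 6, at 44.3% in E3 and 35.1% in CT, both near the intermediate range. Germline genes had 4 of 25 unmethylated, all at Zpbp2, and 44.0% of the 25 were fully methylated. Dazl, which encodes a germ cell RNA binding protein, had 0 of 11, at 96.8% in E3 and 99% in CT. Slc25a31, which encodes a testis mitochondrial carrier, had 0 of 5, at 86.8% in E3 and 84.7% in CT.

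Short sequence elements were counted in the 300-base promoters of the RefSeq table (GRCm38), which reach from 250 bases before a start to 50 after it. In 591 of the 31396 promoters at least 3 cytosines were in the depth window and all were unmethylated, and in 305 at least 3 were and none was unmethylated. The GC box GGGCGG, on either strand, was in 76.0% of the 591, in 49.2% of the 305 and in 36% of all promoters. The ETS core CCGGAAG was in 23.4%, 18% and 9.00%, and the NRF1 core GCATGCGC in 7.78%, 5.57% and 2.70%. The TATA box TATAAA was in 3.89% of the 591, in 6.89% of the 305 and in 13.6% of all promoters. The estrogen response half-site AGGTCA was in 9.31%, 11.5% and 16.3%. A promoter of the 591 held a median of 28 CpGs, against 20 in the 305 and 7 in all, so the groups also differed in CpG content, whose part in these shares was not tested.

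A smaller set of unmethylated cytosines lay far from any start. Over 5000 bases away were 2750 (5.16%), against 46.3% of the depth window and 82.5% of fully methylated cytosines. Of the 2750, 57.3% had island-like surroundings and 49% lay inside a gene. They formed 38 chains of 8 or more cytosines, and those with 14 or more are given here or, for Gdf6, above. The run with the most cytosines, 22 at chr7:127254100-127254295, lay inside Zfp771, with 1 of 1052 reads methylated in E3 and 0 of 535 in CT. The Lmx1a run of 20, given above, was 113660 bases downstream of the nearest start. The lncRNA gene A830009L08Rik held 18, with 1 of 837 reads methylated in E3 and 1 of 783 in CT. Tbr1, a transcription factor gene of cortical glutamatergic neurons, held 15 near its end at chr2:61812142-61812305, with 0 of 462 reads methylated in E3 and 0 of 372 in CT. Otud7a held 15 inside the gene, with 0 of 459 reads methylated in E3 and 0 of 422 in CT. Otp, a homeobox gene of the hypothalamus, had 14 at 6846 bases upstream, with 0 of 534 reads methylated in E3 and 0 of 352 in CT. These runs were named after their values were seen.

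Distant unmethylated cytosines had more mixed surroundings. Of the depth-window neighbours within 100 bases, 57.8% were unmethylated and 0.655% fully methylated, against 74.4% and 0.00519% around the unmethylated cytosines within 1000 bases of a start. In sparse sequence, with at most 4 CpGs within 100 bases on each side, lay 332 of the 2750, and there 18.1% of 287 neighbours were unmethylated and 5.57% fully methylated. A reference C that is T in the mice reads as unmethylated in bisulfite data, and whether that occurred at these cytosines was not tested.

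The opposite strand of the same CpG gave a measure the rule had not used. It was measured for 38400 of the 53292 unmethylated cytosines (72.1%). In 9417 of these it was in the depth window, and 67.2% of the 9417 were unmethylated by the same rule, against 27.0% of the whole depth window. The rule had judged these opposite strands too, so they are no separate measure. In the other 28983 it was outside the depth window, where the rule had not used it. The median there was 36 reads in E3 and 10 in CT, with under 20 reads in CT at 96.7%. These 28983 opposite strands were close to unmethylated. The pooled level was 1.73% in E3 (95% Wilson interval 1.70% to 1.75%) and 1.85% in CT (1.80% to 1.89%), intervals for counting error only. No read was methylated in either library at 70.3%, and both libraries were at 10% or less at 90.2%. A level of 80% or more in both was found at 3 of them.

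The opposite strands outside the depth window were tested between the libraries with a 2-sided Fisher's exact test, with a call taking both an unadjusted p under 0.05 and 10 points or more between the libraries. They were called lower in E3 at 885 of 28983 (3.05%), against 4.32% of all 1950120 autosomal cytosines outside the depth window and 5.50% of the 95817 whose opposite strand was in the depth window. They were called higher in E3 at 39 (0.135%), against 5.80% and 5.77%. The share called lower was thus under both backgrounds, and the share called higher far under both. The backgrounds hold cytosines of all methylation levels, while these opposite strands were close to unmethylated. Near 0 the thresholds are not alike in the 2 directions at unequal depth. At the median depths, 0 of 36 methylated reads in E3 against 2 of 10 in CT reach the lower call, while the higher call takes 12 of 36 in E3 against 0 of 10 in CT. Under Benjamini-Hochberg adjustment over all cytosines outside the depth window, 305 were lower (1.05%) and 3 higher (0.0104%), against 1.01% and 1.72% in the background. With methylated and unmethylated reads each halved, as if every molecule had been read 2 times, 340 were lower (1.17%) and 3 higher (0.0104%), against 1.19% and 2.09% in the background. Depths of called opposite strands were even numbers at 72.2% in E3 and 79.5% in CT. Their methylated reads were even in number at 74.1% in E3 and 87.6% in CT.

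**Figure D4:**
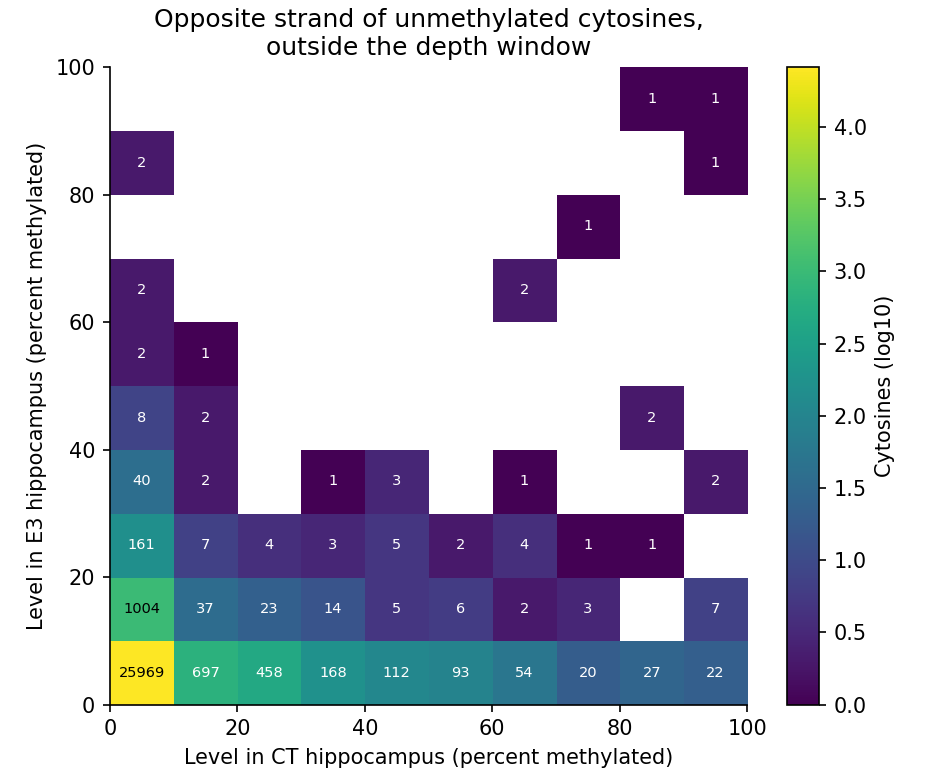
Number of opposite strands of unmethylated cytosines outside the depth window, by their level in E3 hippocampus (percent, y axis) and in CT hippocampus (percent, x axis) in steps of 10 points, with color on a log10 scale and the count in each cell. The cell under 10% in both holds 25969 of the 28983, and more cytosines lie along the CT axis than along the E3 axis, where CT has the lower depth.

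Single opposite strands were far apart between the libraries. Of the 28983, 216 were under 10% in E3 and at 50% or more in CT, and 6 were at 50% or more in E3 and under 10% in CT. The same count over all cytosines outside the depth window was not made, so the 216 and 6 have no background. At the median depths of 10 reads in CT and 36 in E3, a level of 50% takes fewer methylated reads in CT. At the promoter of A430057M04Rik (chromosome 14, position 21847859), 0 of 88 reads were methylated in E3 and 14 of 16 in CT (Fisher's exact p = 1.5e-15). The cytosine next to it on the other strand had 0 of 82 reads methylated in E3 and 0 of 20 in CT. At Ptprz1, a receptor phosphatase gene of glia (chromosome 6, position 22875913), 0 of 85 reads were methylated in E3 and 10 of 10 in CT (Fisher's exact p = 9.9e-14). Inside Wnt7b, which encodes a secreted Wnt ligand, 2 of 34 reads were methylated in E3 and 16 of 16 in CT. At Srf, the gene of serum response factor, 0 of 58 reads were methylated in E3 and 8 of 8 in CT. The rest of the 10 smallest p-values in this direction were at Nxnl2, Atg16l1, Rnf44, Sema3f, Rnf114 and Arhgap27, with 0% to 3.64% in E3 and 55.6% to 75% in CT. The p-values here and in the other direction take each read as a separate molecule. Molecules counted repeatedly would make them too small, and whether that took place was not tested.

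The calls in the other direction were few and weaker. Inside Lhx1, a LIM homeobox gene (chromosome 11, position 84521737), about 26 of 120 reads were methylated in E3 and 0 of 68 in CT (Fisher's exact p = 3.5e-06, adjusted p = 0.00085). At Wapl, a cohesin release factor gene, 8 of 12 reads were methylated in E3 and 0 of 30 in CT (Fisher's exact p = 4.2e-06). Inside Fignl2, 16 of 26 were methylated in E3 and 0 of 16 in CT. After these 3, the adjusted p was 0.0754 or more, at Alkbh5, Espn, Kif21a, Pdlim4, Cntn4 and Oxct2b and at a site outside genes on chromosome 7.

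Non-CpG cytosines near the unmethylated ones were low in methylation in both libraries. CHG and CHH sites (H is any base but G) are methylated in neurons, mostly where the next base is A, and the rule did not use them. Within 50 bases of an unmethylated cytosine, the pooled CHG level was 1.08% in E3 and 1.05% in CT, over 182735 sites. Near fully methylated cytosines it was 2.48% in E3 and 2.52% in CT, near intermediate ones 2.18% in E3 and 2.27% in CT, and over all autosomal CHG sites 2.21% in E3 and 2.28% in CT. The CHH level near unmethylated cytosines was 1.14% in E3 and 1.11% in CT, over 390511 sites. Near fully methylated cytosines it was 2.76% in E3 and 2.87% in CT, and over all autosomal CHH sites 2.45% in E3 and 2.55% in CT. Reads of 1 fragment cover both kinds of site, so these levels come partly from the molecules that the rule judged.

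The sequence context was compared within the same sites. CHH cytosines followed by A were at 1.36% in E3 and 1.37% in CT near unmethylated cytosines, and those followed by C at 1.03% in E3 and 1.01% in CT. Near fully methylated cytosines the CHH level before A was 3.80% in E3 and 4.03% in CT, and before C 1.97% in E3 and 1.97% in CT. The excess before A over that before C was thus present near both classes and smaller near the unmethylated one. Cytosines that escaped the bisulfite conversion also count as methylated, and their part in the levels was not tested.

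**Figure D5:**
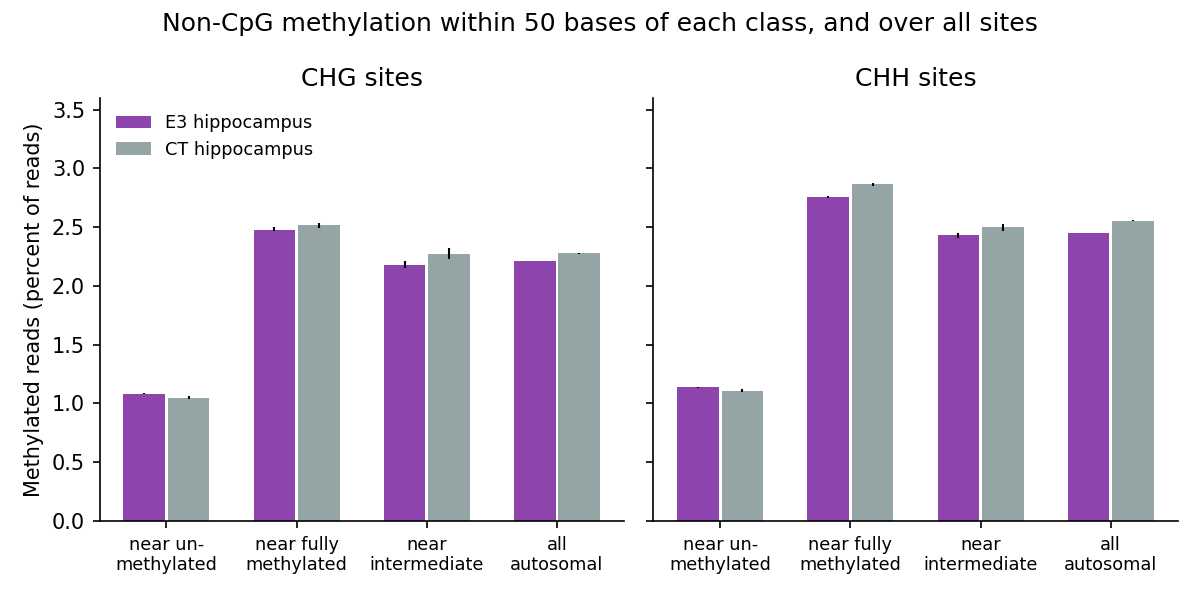
Methylated reads as a percentage of reads (y axis) at CHG and CHH sites within 50 bases of unmethylated, fully methylated and intermediate cytosines and over all autosomal sites, in E3 (left bar) and CT (right bar) hippocampus, with 95% Wilson intervals for counting error. Near unmethylated cytosines the levels are 1.05% to 1.14%, under the 2.18% to 2.87% near the other 2 classes.

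Few of the unmethylated CpGs were among the differences listed for the frontal cortex. The frontal cortex table holds called sites only, with the fraction of each library and no depth, and 9227 of its CpGs were on chromosomes 1 to 19. An unlisted CpG was either covered and not called or not covered enough, which cannot be told apart. Of the 50126 unmethylated CpGs, 72 were listed (0.144%, Wilson interval 0.114% to 0.181%), against 845 of 182837 CpGs of the depth window (0.462%). Fully methylated CpGs had a share of 0.0901% and intermediate ones 0.821%. Listed lower in E3 were 42 of the 72 (0.0838% of the unmethylated CpGs, against 0.239% of the depth window). Listed higher in E3 were 30 (0.0598%, against 0.223%). At 56 of the 72, a frontal cortex library was under 5%. Of the 72, 25 lay in a promoter (34.7%, against 87.1% of all unmethylated cytosines), and 36 were over 5000 bases from a start. The same shares over all CpGs listed for the frontal cortex were not counted. Whether this placement is particular to the 72 is therefore not known.

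The largest differences listed were at CpGs outside promoters. In each the position is that of the plus strand C, in capitals with its G in the middle of the 82 bases printed for the first pair. A reference C that is T in the mice of a library reads as unmethylated there, as stated above for distant cytosines. Whether that occurred at these CpGs, or at the other large differences given below, was not tested. Inside Scrn1 at chr6:54523369-54523450, the CpG at position 54523409 was at 0% in E3 and 96.2% in CT in the frontal cortex. In the hippocampus its 2 strands had 0 of 46 and 0 of 26 reads methylated in E3, and 0 of 22 and 0 of 20 in CT.
Scrn1: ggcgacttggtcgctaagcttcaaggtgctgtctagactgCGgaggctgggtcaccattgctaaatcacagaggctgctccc
Inside Oxr1, an oxidation resistance gene, at chr15:41707517-41707598, the CpG at position 41707557 was at 87.5% in E3 and 0% in CT in the frontal cortex. In the hippocampus its plus strand had 0 of 24 reads methylated in E3 and 0 of 46 in CT.
Oxr1: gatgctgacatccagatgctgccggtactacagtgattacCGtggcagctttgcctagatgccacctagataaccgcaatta

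Of the other 8 largest differences, 6 were lower in E3 and 2 higher. Upstream of Scgb2b4-ps the frontal cortex level was 0% in E3 and 88.9% in CT, with 0 of 64 reads methylated in E3 and 0 of 32 in CT in the hippocampus. Inside Arhgef4, a guanine nucleotide exchange factor gene, it was 0% in E3 and 70.0% in CT. There the unmethylated cytosine of the hippocampus was on the minus strand, with 0 of 30 reads methylated in E3 and 0 of 26 in CT. The plus strand, which did not meet the rule, had 2 of 28 reads methylated in E3 and 0 of 17 in CT. Inside Mtrr, the methionine synthase reductase gene, it was 0% in E3 and 61.9% in CT. The sites nearest to Gm42356 and Gm40374 were lower in E3 by 70.3 and 57.9 points. Those nearest to Gm38759 and Gm46609 were at 68.2% in E3 against 0% in CT, and at 66.7% in E3 against 9.52% in CT. All 10 lay between 3105 and 51132 bases from the nearest start, with 3 to 7 CpGs within 100 bases on each side, against a median of 19 around the unmethylated cytosines.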

How the data were processed

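Bisulfite sequencing of DNA cut with TaqαI (TCGA) and MspI (CCGG), by the Methyl-MiniSeq service, gave 4 libraries. Per the methods, the authors trimmed with TrimGalore 0.6.4 (checked with FastQC 0.11.8), aligned to mm10 with Bismark 0.19.0 and called with MethylDackel 0.4.0. The authors deposited, for the hippocampus, the read count and the methylated fraction (2 decimals) per cytosine and strand with at least 5 reads. Methylated reads were rebuilt as fraction times reads, which is exact under 100 reads. Of the opposite strands outside the depth window, 660 (2.28%) had 100 or more reads in E3 or CT. Their rebuilt counts are approximate, and the named ones at Lhx1, Sema3f and Atg16l1 are among them. For the frontal cortex, the deposited fraction of called CpGs was used, with depth unknown. Deposited differences, p-values, classes and annotations were not used, nor were the frontal cortex CHG and CHH tables.

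Starts, exons and genes came from RefSeq (GRCm38.p6). All autosomal CpG positions were C on their strand in that genome, and 1-based positions are given. Depth in the autosomal hippocampus CpG table had a median of 27 reads in E3 and 9 in CT. Intervals are 95% Wilson intervals and limits for 0 allow 3 counts. PCR reads carry no molecular identifiers, so both cover counting error only. The only test, a 2-sided Fisher's exact test (SciPy), was tested on simulated data and took the study's thresholds of 10 points and 0.05.

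The unmethylated cytosines and the gene lists were chosen with earlier results of these data known. Named genes are the 15 with the most unmethylated promoter cytosines, those at the 10 longest chains, per list up to 4 with the most and 2 with the smallest share, the 10 largest frontal cortex differences, the 10 smallest p-values per direction, the 10 with the most promoter cytosines and none unmethylated, and 5 from the study's text. Some of these are given only as counts, and some are not reported here. Alternatives covered the fraction limit, depth, strands, promoter width, chain distance and call rule, and the 40-read depth, the 20-read coverage and halved reads were added after seeing the data.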

Additional observations from a re-analysis of the deposited data

How the results depend on the processing

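The rule's depth limits set how many cytosines it found. With 30 to 99 reads in both libraries 11442 were unmethylated, with 40 to 99 reads 2459 and with 10 to 99 reads 250718. Fractions of exactly 0, fractions of up to 0.05 and summed strands kept the count within 1.5 times of 53292. The promoter share was 74.6% within 500 bases of a start, 88.7% with strands summed and 88.5% at 40 to 99 reads. Chain distances of 50 and 200 bases gave 16724 and 13483 chains. Opposite strands called lower in E3 numbered 305 with adjusted p-values (1.05%, against 1.01% of the background), 340 with halved reads (1.17%, against 1.19%) and 24 of 412 with at least 20 reads in both libraries (5.83%, against 8.68%). Those called higher numbered 3, 3 and 1 (0.0104%, 0.0104% and 0.243%, against 1.72%, 2.09% and 8.29%). The CHG level near unmethylated cytosines was 1.04% in E3 and 1.02% in CT at 10 to 99 reads, 1.14% in E3 and 1.12% in CT within 100 bases, and 1.12% in CT as a mean over sites. The CHH level was 1.09% in E3 and 1.07% in CT, 1.21% in E3 and 1.19% in CT, and 1.19% in CT under the same changes. As means over sites the CT levels were therefore above those of E3, while pooled over reads they were below, and the cause was not tested. The share listed in the frontal cortex was 0.129% to 0.170%. No paired analysis was possible because each group had 1 library, and no replicate could be left out for the same reason.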
